A study of Homo sapiens with 8 samples.

Results

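The transcripts described here are those of IGF2BP1, IGF2BP2 and IGF2BP3, the family of insulin-like growth factor 2 mRNA-binding proteins. They were examined for eCLIP peaks of RBPMS in human embryonic stem cells. Their members are all listed eCLIP peaks that lie on the gene strand inside a window around each gene, on build hg19. The windows run from 47074 to 47134 kb on chromosome 17, plus strand, for IGF2BP1, from 185361 to 185543 kb on chromosome 3, minus strand, for IGF2BP2, and from 23349 to 23510 kb on chromosome 7, minus strand, for IGF2BP3. This gave 443 of the 194003 peaks listed in all, with 71 in IGF2BP1, 177 in IGF2BP2 and 195 in IGF2BP3.

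The cells were of the established human embryonic stem cell line HUES6, wild type in genotype and labelled as control for treatment, and grew in FTDA medium. Dishes with some 20M cells each received UV light at 400 mJ/cm2, which links proteins to the RNA they touch. The RNA was then pulled down with an antibody against RBPMS in 4 eCLIP libraries (enhanced crosslinking and immunoprecipitation), and 4 input libraries were made without antibody. The groups share cell line, genotype and crosslinking, and differ in the antibody step. Input values were used only as part of the log2 fold and p that the authors gave each peak. Separate cultures are not mentioned in the labels, so the spread between libraries, and any p that rests on it, may be technical. The lists give enrichment over input and no expression levels, so the labelled cell type was not checked against marker genes.

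IGF2BP proteins carry RNA recognition motifs and KH domains, bind mRNAs such as those of IGF2, MYC and beta-actin, and are known for keeping bound mRNAs stable and for guiding where they are translated. IGF2BP1 and IGF2BP3 are called oncofetal because they are abundant in the embryo, low in most adult tissues and found again in many tumours, whereas IGF2BP2 is also expressed in many adult tissues. RBPMS is itself an RNA-binding protein with an RNA recognition motif, known as a splicing regulator in muscle cells. The peaks below concern the mRNAs and pre-mRNAs of the family and not their proteins.

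The libraries listed 25759, 118375, 20254 and 29615 peaks, in the order 1 to 4. The read numbers behind a peak were worked out from its deposited log2 fold and p. The depth of input over immunoprecipitation came out at 3.18, 1.04, 2.12 and 1.46. Libraries 3 and 4 could not be told apart beyond sampling noise (chi-square of 1.06 per degree of freedom over 382 shared peaks, chi-square test p = 0.193, against 6.35 to 12.1 for the other 5 pairs), and the pair was counted as 1 sample. Means are therefore over n = 3 samples.

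An enriched peak was one at least 8-fold over input, a log2 fold of at least 3, with a −log10 p of at least 3. IGF2BP1 held 21 of the 23 enriched peaks of the family. IGF2BP2 and IGF2BP3 held 1 each, in 1 library each, although they held 177 and 195 of the listed peaks. The enriched peaks of IGF2BP1 were not spread over the gene: 19 lay within a stretch of 860 bases near its 3′ end, and the other 2 lay at 1 place 39.9 kb upstream of the window's 3′ edge.

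In IGF2BP1, 4 of 16 listed peaks were enriched in library 1, which is 25% (Wilson 95% interval 10.2 to 49.5) beside 15.9% of all listed peaks of that library. In library 2 it was 8 of 27, or 29.6% (15.9 to 48.5), beside 5.38%. Library 3 had 4 of 12, or 33.3% (13.8 to 60.9), beside 12.6%, and library 4 had 5 of 16, or 31.3% (14.2 to 55.6), beside 12.7%. The share was thus above that of all listed peaks in 4 of 4 libraries, but the interval includes the share of all peaks in library 1, and excludes it in libraries 2, 3 and 4. Libraries 3 and 4 count as 1 sample. Over samples IGF2BP1 had 29.0% ± 3.69 enriched peaks and the whole lists 11.3% ± 5.40 (SD, n = 3). Adjacent peaks of 1 library often abut and can share reads, so they are not independent of each other. The intervals take them as independent and can be too narrow. With abutting peaks of a library joined and counted once, an alternative chosen after seeing the data, IGF2BP1 had 3 of 13, 3 of 21, 4 of 12 and 4 of 15 enriched, or 22.5% ± 7.88, beside 10.6% ± 5.88 over the whole lists.

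In IGF2BP2, none of 22 listed peaks in library 1, none of 105 in library 2 and none of 11 in library 3 was enriched, which allows shares of up to 13.6%, 2.86% and 27.3%. Library 4 had 1 of 39, or 2.56% (Wilson 95% interval 0.454 to 13.2). In IGF2BP3, none of 15, 14 and 43 listed peaks was enriched in libraries 1, 3 and 4, which allows up to 20.0%, 21.4% and 6.98%, and library 2 had 1 of 123, or 0.813% (0.144 to 4.46). For IGF2BP2 the limit lay below the share of all listed peaks (15.9% and 5.38%) in libraries 1 and 2. In library 4 the interval includes 12.7%, and in library 3 the limit of 27.3% lies above 12.6%, so 11 peaks could not show a lower share there. For IGF2BP3 the interval or limit lay below the share of all listed peaks in libraries 2 and 4, and above it in libraries 1 and 3. These limits and intervals cover counting error only.

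**Figure D1:**
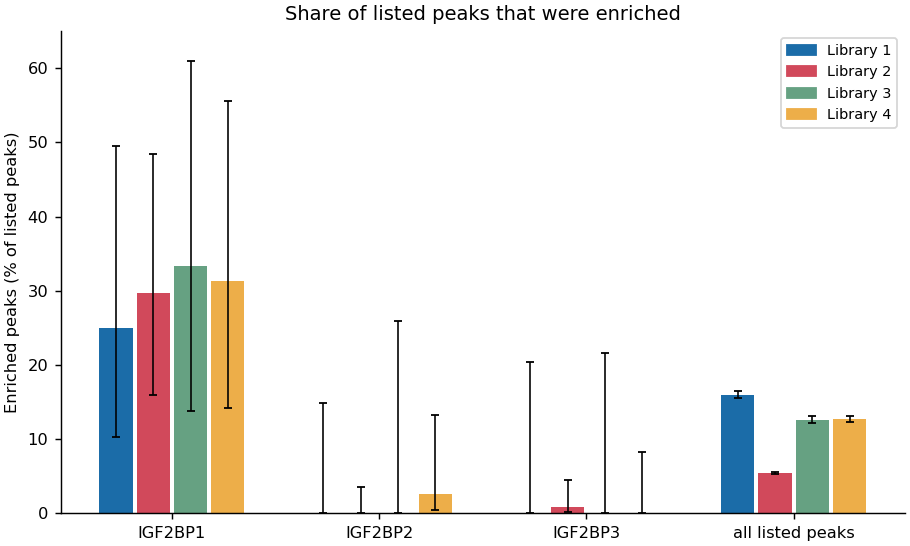
Share of listed peaks that were enriched (%), for each of the 3 genes and for all listed peaks, by library; bars start at 0 and error bars are Wilson 95% intervals, which cover counting error only. IGF2BP1 lies between 25% and 33.3%, the whole lists between 5.38% and 15.9%, and IGF2BP2 and IGF2BP3 at or below 2.56%.

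The median peak, taken without the thresholds, did not place IGF2BP1 above the whole lists. The median log2 fold of IGF2BP1 peaks was 2.87, 1.55, 2.54 and 1.90 in libraries 1 to 4, beside 3.25, 1.06, 2.67 and 2.13 for all listed peaks. IGF2BP1 lay above the whole list in library 2 and below it in libraries 1, 3 and 4, with a mean difference of -0.02 ± 0.45 (SD, n = 3; exact two-sided sign-flip permutation p = 1). This difference turned to 0.055 when only peaks with a −log10 p of 1 or more entered and to 0.15 without library 1. The median log2 fold of IGF2BP2 peaks was 2.74, 0.65, 2.09 and 1.86, below the whole list in 4 of 4 libraries by a mean of -0.45 ± 0.06. For IGF2BP3 it was 1.67, 0.32, 1.67 and 1.13, likewise below in 4 of 4 libraries, by -1.11 ± 0.43 (exact sign-flip p = 0.25 for both genes, adjusted p = 0.375 over 3 genes). With peaks of a −log10 p of 1 or more these differences shrank to -0.28 ± 0.46 and -0.46 ± 0.39. With 3 samples no p below 0.25 can be reached.

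Between the genes, the 3 medians had the same order in all 4 libraries, IGF2BP1 highest and IGF2BP3 lowest. IGF2BP1 exceeded IGF2BP3 by a log2 of 1.08 ± 0.23, and IGF2BP2 exceeded IGF2BP3 by 0.66 ± 0.38 (SD, n = 3). The gap between IGF2BP1 and IGF2BP2 was 0.43 ± 0.41, about as large as its spread, from 0.04 in library 4 to 0.90 in library 2, and it was 0.19 without library 2. All 3 pairs had 3 of 3 samples in that direction and an exact sign-flip permutation p of 0.25, the smallest possible, with an adjusted p of 0.25 over 3 pairs. When only peaks with a −log10 p of 1 or more entered, IGF2BP1 exceeded IGF2BP3 by 0.51 ± 0.10 and IGF2BP2 exceeded IGF2BP3 by 0.18 ± 0.75 (adjusted permutation p = 0.75). The share of IGF2BP3 peaks below input was 6.67%, 35.8%, 7.14% and 23.3% in libraries 1 to 4, or 1 of 15, 44 of 123, 1 of 14 and 10 of 43. Of all listed peaks it was 2.84%, 15.6%, 4.29% and 7.42%. The IGF2BP3 share was higher in 4 of 4 libraries, but in libraries 1 and 3 this rested on 1 peak. Libraries 3 and 4 count as 1 sample. In IGF2BP2 it was 4.55%, 17.1%, 9.09% and 2.56%, or 1 of 22, 18 of 105, 1 of 11 and 1 of 39. This was below IGF2BP3 in libraries 1, 2 and 4 and above it in library 3. In libraries 1 and 3 each of these genes had 1 peak below input, so the order there reflects only the number of listed peaks. The lists hold no p for such peaks other than a −log10 p of 0, and depletion was therefore left untested.

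**Figure D2:**
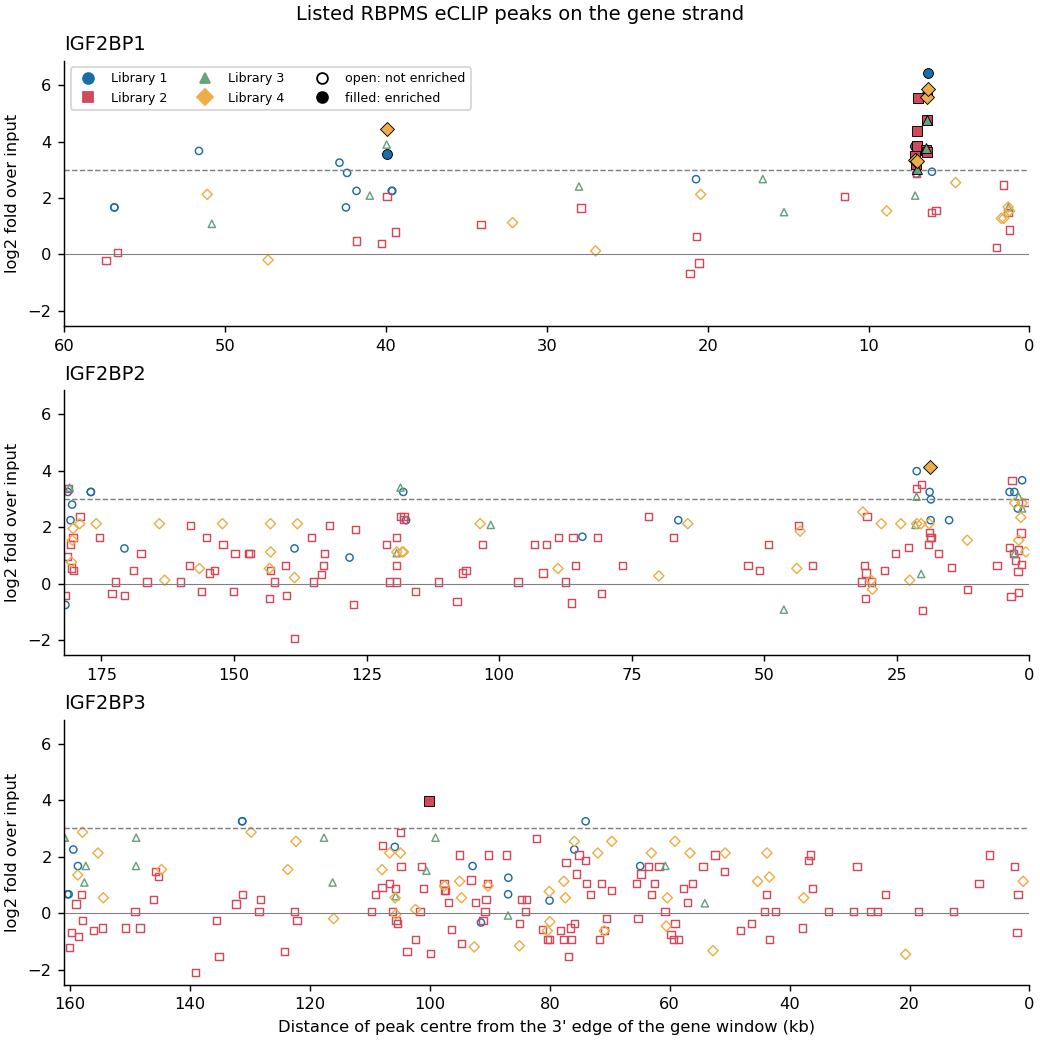
Log2 fold over input of every listed peak on the gene strand (y axis) against the distance of its centre from the 3′ edge of the gene window in kb (x axis, 5′ to 3′ from left to right), for the 3 genes; colour and shape give the library, filled symbols are enriched peaks and the dashed line is log2 of 3. The filled symbols of IGF2BP1 stack between 6.3 and 7.1 kb and at 39.9 kb, and IGF2BP2 and IGF2BP3 have 1 filled symbol each.

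IGF2BP1, also known as ZBP1 or IMP1, is the member best known for carrying beta-actin mRNA, and its own mRNA ends in a long 3′ untranslated region that is a textbook target of let-7 microRNAs. Listed peaks gathered at this end of the gene. In libraries 1 to 4, 31.3%, 55.6%, 50% and 62.5% of the IGF2BP1 peaks had their centre in the last 10 kb of the 60 kb window. Exon positions on build hg19 were not used here, so no peak is assigned to the coding sequence, to the 3′ untranslated region or to an intron.

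The site closest to the 3′ end had the highest mean fold, although not the highest in every library. It spanned 157 bases, chr17:47127544-47127700, about 6.4 kb from the window's 3′ edge, and was enriched in 4 of 4 libraries. Its highest log2 fold was 6.42, 4.77, 4.75 and 5.85 in libraries 1 to 4, a mean of 5.50 ± 0.84 (SD, n = 3). All 4 libraries were above 8-fold, with libraries 1 and 4 higher than libraries 2 and 3. Among the 1699 regions of the series that were enriched in at least 3 of 4 libraries, 82.2% had a mean log2 fold at or below that of this site, which ranked 304.

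Each library had a peak with known reads at this site. In library 1 the peak at chr17:47127604-47127683 had 96 immunoprecipitation reads over 6 input reads, a log2 fold of 5.67 (exact 95% interval 4.49 to 7.15). In library 2 the peak at chr17:47127622-47127700 had 235 over 9, a log2 fold of 4.77 (3.82 to 5.91). Library 3, the shortest list, had 38 over 3 at chr17:47127635-47127696, a log2 fold of 4.75 (3.09 to 7.09). Library 4 had 98 over 3 at chr17:47127608-47127674, a log2 fold of 5.57 (3.98 to 7.87). The lower bounds of these peaks, the highest with known reads in each library, stayed above log2 of 3. The other enriched peaks of the site with known reads, on its 5′ side, reached below it: the lower bounds were 2.52 and 2.58 in library 2 and 1.64 in library 3.

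The highest log2 folds of libraries 1 and 4 came from short neighbours of these peaks, of 13 and 21 bases, ending at 47127696 and 47127695. There the p stood at its ceiling, and the reads could only be narrowed to 54 to 108 over 2 to 4 input reads in library 1 and 79 to 158 over 2 to 4 in library 4. The enriched peaks of the site ended within a few bases of each other, at 47127696, 47127700, 47127696 and 47127695 in libraries 1 to 4, whereas their starts were spread more widely, at 47127604, 47127544, 47127583 and 47127608. In all 4 libraries, 61 bases, chr17:47127635-47127695, were covered by an enriched peak, and so were 11 bases at chr17:47127608-47127618.

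A neighbouring site lay upstream on the same strand, 469 bases before it. Its listed peaks joined into 234 bases, chr17:47126841-47127074, about 7.0 kb from the window's 3′ edge. Its highest log2 fold was 3.83, 5.54, 3.41 and 3.35 in libraries 1 to 4, a mean of 4.25 ± 1.14 (SD, n = 3), with each library enriched at some point of the site. Library 2 stood highest here, whereas in the site closer to the 3′ end libraries 1 and 4 did. The stronger of the 2 sites was the one closer to the 3′ end in libraries 1, 3 and 4, and the upstream one in library 2. The 5.54 of library 2 came from a peak of 17 bases with p at the ceiling, of 89 to 178 reads over 2 to 4, and among its peaks with known reads the upstream site reached 4.36 and the other 4.77. These differences between sites were seen in the data and not tested.

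Within the upstream site the libraries did not cover the same bases. Its first part, chr17:47126841-47126946, was enriched in libraries 1, 2 and 4, at log2 folds of 3.83, 3.50 and 3.35. Library 3 listed a peak there at a log2 fold of 2.09, from 38 reads over 19 input reads, with a −log10 p of 7.33, below the 8-fold threshold. In the second part, chr17:47126958-47127074, libraries 2, 3 and 4 were enriched, at 5.54, 3.41 and 3.30, and library 1 listed a peak at 2.86, from 16 reads over 7, just under 8-fold. The parts are 11 bases apart and both count among the 1699 reproducible regions, with mean log2 folds of 3.56 ± 0.24 (SD, n = 3) and 4.44 ± 1.54 (SD, n = 2). Their ranks by mean log2 fold were 1654 and 1074. With libraries 3 and 4 as 1 sample, the first part was enriched in 3 of 3 samples and the second in 2.

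Input reads in the first part were more numerous than at the site closer to the 3′ end. The peak of library 2 at chr17:47126841-47126923 had 228 immunoprecipitation reads over 21 input reads, a log2 fold of 3.50 (exact 95% interval 2.85 to 4.22). Library 1 had 67 over 15, at 3.83 (3.003 to 4.74), and library 4 had 63 over 9, at 3.35 (2.33 to 4.54). These log2 folds were lower than those at the site closer to the 3′ end in each of these 3 libraries. Their intervals overlapped those of that site's highest peak with known reads in libraries 1, 2 and 4, and the difference was not tested. The lower bounds of the first part reached below log2 of 3 in libraries 2 and 4.

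**Figure D3:**
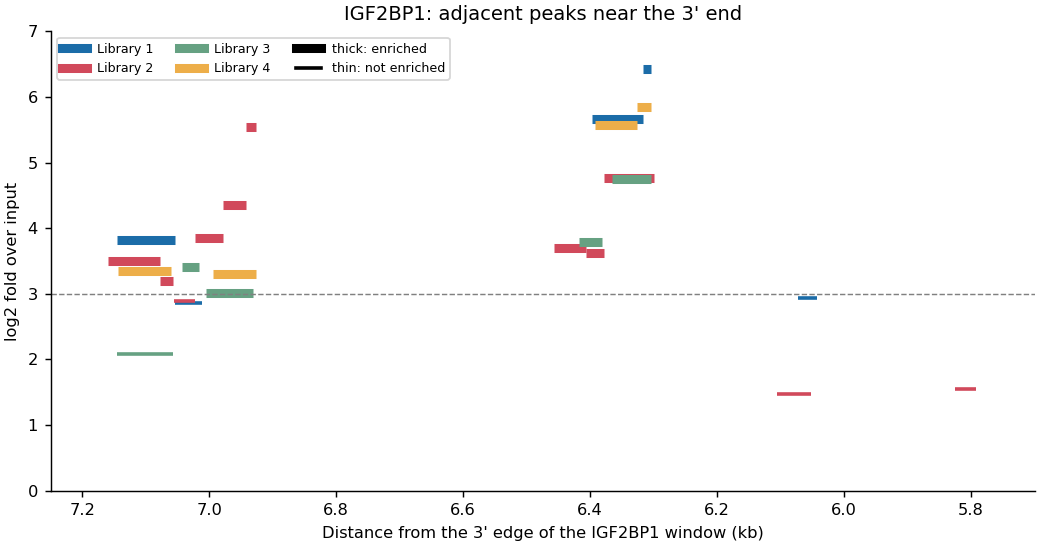
Peaks of IGF2BP1 around the sites near its 3′ end, each drawn at its distance from the 3′ edge of the window and at its true width (x axis, kb) and log2 fold over input (y axis); colour gives the library, thick bars are enriched peaks, thin bars are not, and the dashed line is log2 of 3. At about 6.4 kb each of the 4 libraries has a bar at 4.75 or higher, and the bars at about 7.0 kb spread between 2.09 and 5.54.

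A further site of IGF2BP1 lay far from these, 39.9 kb from the window's 3′ edge, at chr17:47093999-47094108. All 4 libraries listed a peak there, at log2 folds of 3.54, 2.06, 3.89 and 4.45, a mean of 3.26 ± 1.08 (SD, n = 3). Libraries 1 and 4 passed as enriched, with 11 reads over 3 and 15 over 1. Library 3 reached the fold but not the p, with 7 reads over 1 input read and a −log10 p of 2.70, and library 2 was 16 over 4. The exact 95% intervals ran from 1.62 to 6.02, 0.43 to 4.10, 0.93 to 9.39 and 1.75 to 9.85, so all 4 exclude a fold of 1 and all 4 include 8-fold.

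Downstream of the sites no listed peak was enriched. Around chr17:47127896-47127958 library 1 had a log2 fold of 2.93 (12 reads over 5) and library 2 one of 1.48 (56 over 21), and libraries 3 and 4 listed no peak. Library 4 had 2.54 at chr17:47129387-47129441, from 8 reads over 2. At chr17:47132369-47132446 library 2 had 2.46 (37 over 7, −log10 p of 5.19) and library 4 had 1.28 (15 over 9). Nearer the 3′ edge, at chr17:47132635-47132715, libraries 2, 3 and 4 had 1.49, 1.67 and 1.68, from 51 over 19, 3 over 2 and 11 over 5 reads. Each of these peaks had fewer immunoprecipitation reads than the same library's peaks with known reads at the site closest to the 3′ end. The peaks in the last 10 kb as a whole had a higher median log2 fold than the rest of IGF2BP1 in 4 of 4 libraries, by 1.65 ± 0.96 (SD, n = 3; exact sign-flip permutation p = 0.25, which is the lowest 3 samples allow, adjusted p = 0.25 over 2 genes). Over peaks with a −log10 p of 1 or more it was 0.73 ± 0.77 (adjusted permutation p = 0.5). The last 10 kb holds both neighbouring sites, whose abutting peaks are not independent. The last 5 kb, which leaves these sites out, could not be compared, because library 1 listed no peak there.

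Counted as regions, in which enriched peaks of the libraries that share at least 1 base were merged, IGF2BP1 had 4 regions, of which 3 were enriched in at least 3 of 4 libraries and 1 in all 4. Over the whole genome 22.7% of 7472 regions were enriched in at least 3 libraries. IGF2BP2 and IGF2BP3 had 1 region each, and none of these was enriched in a further library. Counted by samples, 2 regions of IGF2BP1 were enriched in all 3, beside 16.9% of the 7472 regions. The number for IGF2BP1 falls to 1 without library 2 and to 1 without library 4, when 3 libraries are still asked for, and in both cases the region left is in IGF2BP1.

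IGF2BP2, or IMP2, is the member that stays on in adult tissues and is known for its role in metabolism. Its window is the longest of the 3, and its listed peaks numbered 22, 105, 11 and 39. The peaks joined into 139 regions, of which 113 were listed in 1 library, 18 in 2, 6 in 3 and 2 in all 4. By this count 5.76% of its regions were listed in at least 3 libraries, beside 9.76% for IGF2BP1, 3.09% for IGF2BP3 and 4.94% over the whole genome.

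The IGF2BP2 region with the highest fold among those listed in all 4 libraries was chr3:185382225-185382313, 21.3 kb from the window's 3′ edge. Its log2 fold was 3.99, 3.38, 3.09 and 2.13 in libraries 1 to 4, a mean of 3.33 ± 0.69 (SD, n = 3). Each value rested on 5, 10, 4 and 3 immunoprecipitation reads over 1 input read, so none passed as enriched. The intervals ran from 0.83 to 9.55 in library 1, 0.57 to 8.82 in library 2, -0.25 to 8.71 in library 3 and -1.51 to 7.84 in library 4. The other region listed in all 4 lay near the 3′ edge, at 1.40 kb, chr3:185362339-185362465. It had 3.67, 0.69, 2.67 and 2.86, from 4, 17, 3 and 5 reads over 1, 11, 1 and 1 input reads. The library with most reads there, library 2, gave the lowest fold (exact 95% interval -0.49 to 1.93).

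The enriched peak of IGF2BP2 was in library 4, chr3:185379707-185379851, with 12 reads over 1 input read and a log2 fold of 4.13 (exact 95% interval 1.37 to 9.55). Its surroundings, 18.8 kb from the 3′ edge, were listed in 3 libraries. In library 1 the overlapping peak had 6 reads over 2, a log2 fold of 3.25. Library 2, with the most reads there, 17 over 5, gave the lowest fold, 1.83 (0.33 to 3.62). Peaks in the last 10 kb of IGF2BP2 made up 18.2%, 11.4%, 27.3% and 12.8% of its listed peaks, and their median log2 fold exceeded that of the others in 4 of 4 libraries, by 0.64 ± 0.35 (SD, n = 3; exact sign-flip permutation p = 0.25, adjusted p = 0.25). This became 0.31 ± 0.53 over peaks with a −log10 p of 1 or more.

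IGF2BP3, or KOC, is the oncofetal member first found in pancreatic tumours. Its listed peaks, 15, 123, 14 and 43, formed 162 regions, none of them listed in all 4 libraries and 5 in 3. The regions that met the naming rule were chr7:23424886-23424929, 75.9 kb from the 3′ edge, and chr7:23454774-23454928, 106 kb from it. The first had log2 folds of 2.25 in library 1, -0.35 in library 2 and 2.54 in library 4. Its reads were 3 over 2 in library 1 and 4 over 1 in library 4, and are not known in library 2. The second had 2.35, 0.87 and 0.54 in the same libraries, from 8 reads over 5, 14 over 8 and 9 over 9. In both regions, library 1 stood above library 2 and no value reached 8-fold. The depth of input over immunoprecipitation was 3.18 in library 1 and 1.04 in library 2, and its part in this order was not tested. The enriched peak of IGF2BP3 was in library 2, chr7:23449137-23449271, with 15 reads over 1 input read and a log2 fold of 3.97 (exact 95% interval 1.27 to 9.36). In contrast to IGF2BP1, few IGF2BP3 peaks lay near the 3′ end: none in libraries 1 and 3, 5 in library 2 and 1 in library 4 had their centre in the last 10 kb.

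**Figure D4:**
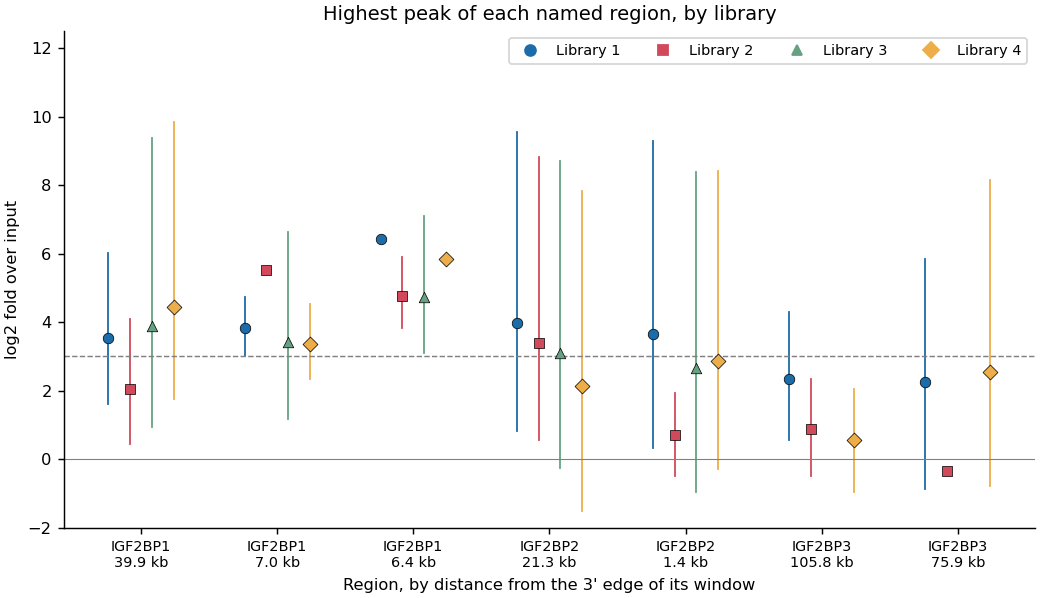
Log2 fold over input (y axis) of the highest peak of each named region in each library; regions are ordered by gene and by distance from the 3′ edge of their window (kb), lines are exact 95% intervals from the read numbers (counting error only) and are missing where reads are not known, and the dashed line is log2 of 3. At 6.4 kb of IGF2BP1 the intervals shown, those of libraries 2 and 3, stay above 3, and libraries 1 and 4 have none. The IGF2BP2 regions span from below 0.9 to above 7.8 wherever input held 1 read.

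Few peaks of IGF2BP2 and IGF2BP3 had reads enough to be called. With 1 input read, a peak needed at least 7, 13, 8 and 10 immunoprecipitation reads in libraries 1 to 4 to be enriched. Among peaks with known reads, 95.2%, 91.9%, 100% and 97.1% of those in IGF2BP2 had fewer, and so did 92.9%, 93.3%, 100% and 100% of those in IGF2BP3. In IGF2BP1 the shares were 60%, 31.8%, 58.3% and 53.8%, and over all listed peaks 77.1%, 85.5%, 84.0% and 82.4%. Most peaks of IGF2BP2 and IGF2BP3 with known reads could therefore not have been called even at the lowest input. The highest immunoprecipitation read number of a peak with known reads was 235 in IGF2BP1, 20 in IGF2BP2 and 15 in IGF2BP3, all in library 2. A low number of reads can come from little transcript or little binding, and these cannot be told apart here.

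**Figure D5:**
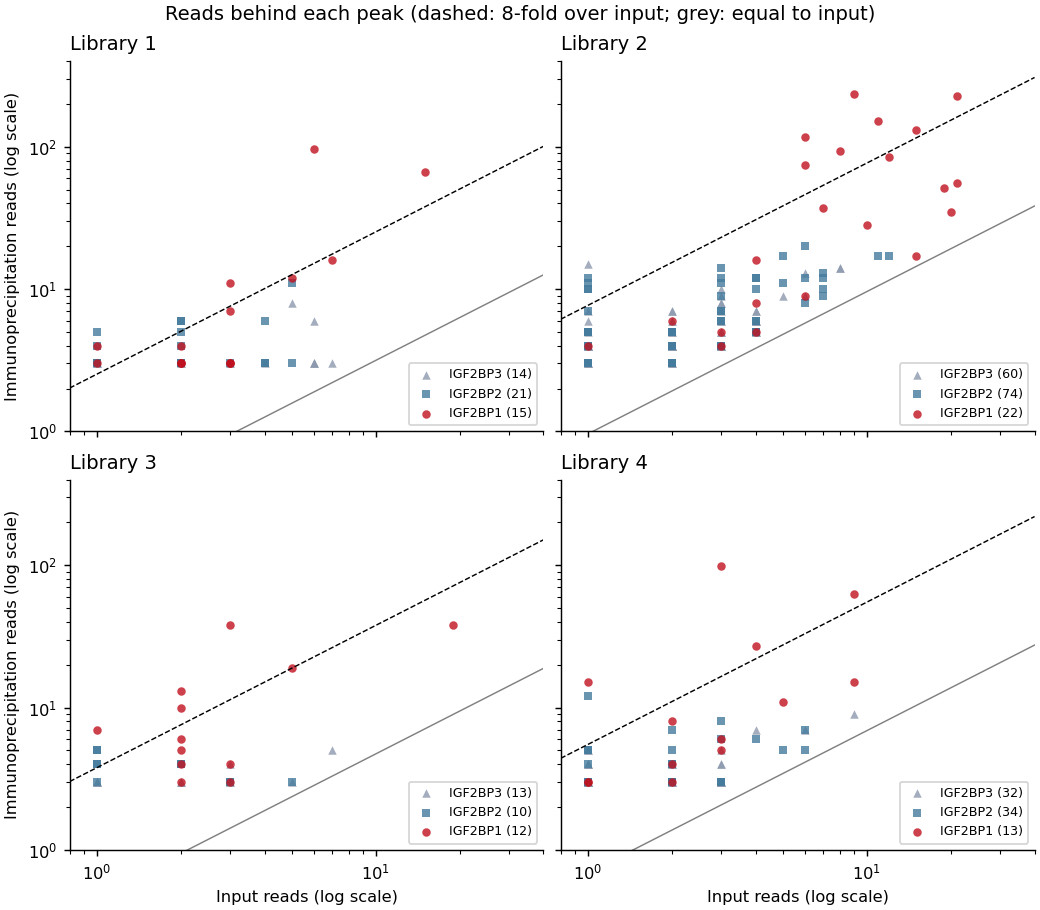
Immunoprecipitation reads (y axis, log scale) against input reads (x axis, log scale) of each peak with known reads, by library; colour and shape give the gene, with the number of peaks in brackets, and points can overlie each other. The dashed line is 8-fold over input and the grey line a fold of 1; IGF2BP1 reaches 235 reads, IGF2BP2 and IGF2BP3 stay at or below 20.

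No library listed a peak on the opposite strand of any of the 3 windows, so 0 peaks stood against the 443 on the gene strand. The peak caller was not given, so it is not known whether peaks on that strand could have been listed. In the RefSeq annotation on GRCh38.p14, used here for names only, the antisense RNA IGF2BP2-AS1 overlaps IGF2BP2 and MALSU1 overlaps IGF2BP3. In the windows widened by 5 kb at both ends, 1.67 peaks per sample were on the opposite strand.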

How the data were processed

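RBPMS eCLIP was measured in 4 libraries of HUES6 cells, against 4 inputs, read in pairs of 75 nt per the labels' protocols. The authors deposited 1 peak list per library, on hg19 per the submitters' processing notes, with a −log10 p and a log2 fold over input per peak. Aligner, peak caller and the input behind each list were not given in the sources used here.

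Peaks counted if they overlapped a window on its strand. Reads are whole numbers whose ratio gives the deposited log2, after a constant for the library, and whose p matches the deposited one to a relative 0.003, by Fisher's exact test (a read number or its expectation below 5) or a continuity-corrected chi-square test. They were found for 99.98% to 100% of peaks with log2 above 0 and −log10 p from 0.1 to 15, in a method tested on simulated data. That the authors computed p so is an assumption, and inputs of 0 and 1 read look alike. Some p stop at a −log10 of 15.7, others at 400. Libraries were compared by chi-square over peaks that overlap by 80% or more of the longer one, with −log10 p of at least 1 and 40 reads. Genes were compared by exact two-sided sign-flip permutation tests over samples. Intervals are Wilson (shares) or exact Clopper-Pearson (folds) at 95%, and a count of 0 allows 3 counts of the total. Named regions have enriched peaks in at least 2 libraries, or are the 2 of a gene listed in the most libraries, ties broken by mean log2. Members, windows and rules were chosen with earlier results of these data known. Peak sequences are not shown. Python 3.11.15, pandas 2.3.3, numpy 2.4.6, scipy 1.17.1 and matplotlib 3.10.9 were used.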

Additional observations from a re-analysis of the deposited data

Results flagged for a closer look

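Dixon's criterion for 4 values, applied to 32 quantities with libraries 3 and 4 kept separate, picked out 6. The number expected by chance, about 1.6, holds for continuous and independent values, which these are not. Where 3 of the 4 values are equal, the criterion always picks out the other one. This was so for the enriched peaks and shares below and for the reads of IGF2BP3. Of the 6, 4 come from 2 peaks. In IGF2BP2 library 4 alone had 1 enriched peak, 2.56% of its listed peaks, and the other 3 libraries had 0. In IGF2BP3 library 2 alone had 1 enriched peak, 0.813% of its listed peaks, and the other 3 libraries had 0. The median number of immunoprecipitation reads of IGF2BP1 peaks was 36 in library 2 and at most 8 in the others, and that of IGF2BP3 peaks was 5 in library 2 and 3 in the others. Over all matched peaks of libraries 1 and 2, before the minimum of 40 reads was applied, library 2 had 2.98 times as many immunoprecipitation reads. The part of this depth in the values was not tested.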

How the results depend on the processing

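No paired analysis was possible because only ratios to input were used, and no input library carrying the same number was analysed by itself. The share of enriched peaks in IGF2BP1, 29.0% in the report, was 39.5% with a log2 fold of at least 1, beside 13.1% of all listed peaks. It was 23.1% with a −log10 p of at least 5, beside 7.84%, and 22.5% with abutting peaks joined, beside 10.6%. Of the peaks with −log10 p of at least 3, 74.4% were enriched in IGF2BP1 and 83.3% in the whole lists. IGF2BP2 had 50% and IGF2BP3 100% there (2 samples and 1 sample with such peaks). The denominator there leaves out most listed peaks. With log2 of at least 1, IGF2BP2 had 1.94%, beside 13.1% of all listed peaks. With each library left out, the share lay between 28.6% and 31.0% in IGF2BP1, 0% and 0.855% in IGF2BP2, and 0% and 0.407% in IGF2BP3. The number of reproducible regions, 3, was 1 when all 4 libraries were asked for and 1 to 2 with each library left out, since 3 libraries were still asked for; all of them lay in IGF2BP1. The difference of IGF2BP1 from all listed peaks, -0.02, turned to 0.055 with −log10 p of at least 1 and to 0.15 without library 1 (-0.28 to 0.15 over libraries left out). Peaks on the opposite strand numbered 1.67 per sample in the wider windows, and the cause was not tested. Of 113 recomputed values, 100 were counted as kept. For shares this meant a move within the spread between samples, and for differences in median the same direction, whatever their size. Region counts of 2 and 4, beside the 3 of the report, were also counted as kept. Listed peaks on the opposite strand do not depend on the log2 or p threshold, so those values could not change. The joined peaks, the minimum of 13 reads, the count by samples and the merging of peaks within 50 bases were chosen after seeing the data. Few peaks of IGF2BP2 and IGF2BP3 had reads enough to be called, and depth, little transcript and little binding cannot be told apart there.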
